A study of Mus musculus with 60 samples.

Results

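This account covers 8 genes whose products are either inhibited by lithium or feed inositol into the pathway that those enzymes serve: Impa1, Impa2, Inpp1, Bpnt1, Impad1, Isyna1, Slc5a3 and Slc2a13. They were picked by name, through the match of each gene identifier to its symbol in GENCODE release M21, and make up 8 of the 18088 genes in the deposited table. Their RNA was measured in dissected prefrontal cortex of C57BL/6J mice at postnatal day 25. The mice were heterozygous for Grin2b C456Y (Grin2b+/C456Y, called Het), an amino acid change in the GluN2B subunit of the NMDA receptor, or wild type (WT). Nursing mothers passed fluoxetine (a serotonin reuptake inhibitor), lithium (a mood stabiliser) or vehicle to the pups in their milk between postnatal days 3 and 24. The 6 groups were Het fluoxetine, Het lithium, Het vehicle, WT fluoxetine, WT lithium and WT vehicle, each with 5 female and 5 male libraries, so 60 in all. Nothing in the labels says whether the numbered replicates come from different animals or litters, and pups of 1 litter would have had the same dosed mother, so p-values measure the spread between these samples only. The dose that reached a pup and the inositol in its cortex were not measured. Values below are the deposited normalised read counts, which are read counts divided by 1 factor per library. In bulk tissue, fewer cells of a type and less RNA per cell cannot be told apart.

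The phosphoinositide cycle begins with inositol that is built into membrane lipids, phosphorylated and cut by phospholipase C into diacylglycerol and the calcium-releasing messenger IP3. IP3 is then dephosphorylated step by step. The last steps, catalysed by INPP1 and the inositol monophosphatases IMPA1 and IMPA2, are directly inhibited by lithium. For INPP1 and IMPA1 this holds at therapeutic levels. Inhibition of those steps is the basis of the inositol depletion hypothesis of how lithium acts in the brain, where cells otherwise obtain inositol by synthesis (ISYNA1) or by uptake through sodium- or proton-coupled transporters (SLC5A3, SLC2A13). BPNT1 in the cytosol and the Golgi enzyme of Impad1 (also known as gPAPP or BPNT2) belong to the same enzyme family and clear the phosphoadenosine phosphate left by sulfation reactions, and lithium inhibits them too.

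The family shares a stretch of aspartates that holds the magnesium ions which lithium displaces, and its coding sequence is shown because it is what joins these enzymes, otherwise distant in sequence, into 1 lithium-sensitive set. It was searched for as codons for aspartate, proline, isoleucine or leucine, aspartate, any residue, and threonine or serine. The search covered the coding part of 1 GENCODE M21 transcript each of Impa1, Inpp1, Bpnt1 and Impad1, and each of the 4 transcripts held 1 match. Impa2 was not searched. The lines give 60 bases of spliced coding sequence in the direction of transcription, with the 18 bases of the match in capitals.
Impa1: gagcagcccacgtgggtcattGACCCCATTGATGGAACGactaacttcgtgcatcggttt
Inpp1: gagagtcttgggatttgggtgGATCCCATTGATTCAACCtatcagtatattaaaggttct
Bpnt1: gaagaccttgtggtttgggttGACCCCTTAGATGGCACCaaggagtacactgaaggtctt
Impad1: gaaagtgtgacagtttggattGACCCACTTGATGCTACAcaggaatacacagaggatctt
In GRCm38 these spliced stretches span chr3:10324094-10326162 (Impa1, minus strand, exons 4 to 5), chr1:52791834-52794500 (Inpp1, minus strand, exons 4 to 5), chr1:185345417-185348748 (Bpnt1, plus strand, exons 4 to 6) and chr4:4776402-4778244 (Impad1, minus strand, exons 2 to 3). The match lies at codons 90 to 95 of 277 in Impa1, 153 to 158 of 396 in Inpp1, 117 to 122 of 323 in Bpnt1 and 172 to 177 of 356 in Impad1. Base for base, Bpnt1 and Impad1 were the most alike of the 6 pairs, with 40 of 60 bases identical, and Impa1 and Impad1 the least, with 26 of 60. Within the capitals, 12 to 14 of 18 bases were identical in every pair, a likeness fixed in part by the search itself.

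All 8 genes were measured well above the limit for testing, and the phosphatases differed widely in level. Per kilobase of the longest transcript, WT vehicle cortex held 702 ± 28.4 normalised counts of Bpnt1, 584 ± 68.1 of Impad1, 438 ± 28 of Impa1, 138 ± 9 of Inpp1 and 31.8 ± 3.08 of Impa2 (SD, n = 10). Impa1, the main inositol monophosphatase of brain, was thus far above its paralog Impa2, whose counting rested on 94 to 224 reads per library. On the supply side, Slc2a13, the proton-coupled inositol transporter HMIT, stood at 506 ± 46.5 per kilobase, Isyna1, the synthase that makes inositol phosphate from glucose 6-phosphate, at 449 ± 54.9, and Slc5a3, the sodium-coupled transporter SMIT1, at 74.8 ± 7.77. By this measure Slc5a3 was the lowest of the 3 supply genes.

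Across the 6 groups each of the 8 genes moved within a narrow band. The highest group mean was 1.1 times the lowest for Bpnt1, 1.11 times for Inpp1, 1.14 times for Impa1, 1.26 times for Impad1 and 1.31 times for both Isyna1 and Slc5a3, with Impa2 and Slc2a13 in between. With the 6 groups ordered by mean, no neighbouring groups differed by more than the larger of their SDs for 7 of the genes, and for Isyna1 this happened at 1 of 5 steps. Ordering by itself makes such steps small, so they do not describe groups further apart. Single libraries also widened some SDs, such as that of Impad1 in WT lithium (883, with male replicate 5 at 6506.8). Het fluoxetine held the highest mean of 5 genes (Inpp1, Bpnt1, Impad1, Slc5a3 and Slc2a13) and the lowest of Impa2 and Isyna1, WT lithium held the highest of Impa1 and Impa2, and WT fluoxetine the lowest of Impa1, Bpnt1, Impad1 and Slc5a3.

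**Figure D1:**
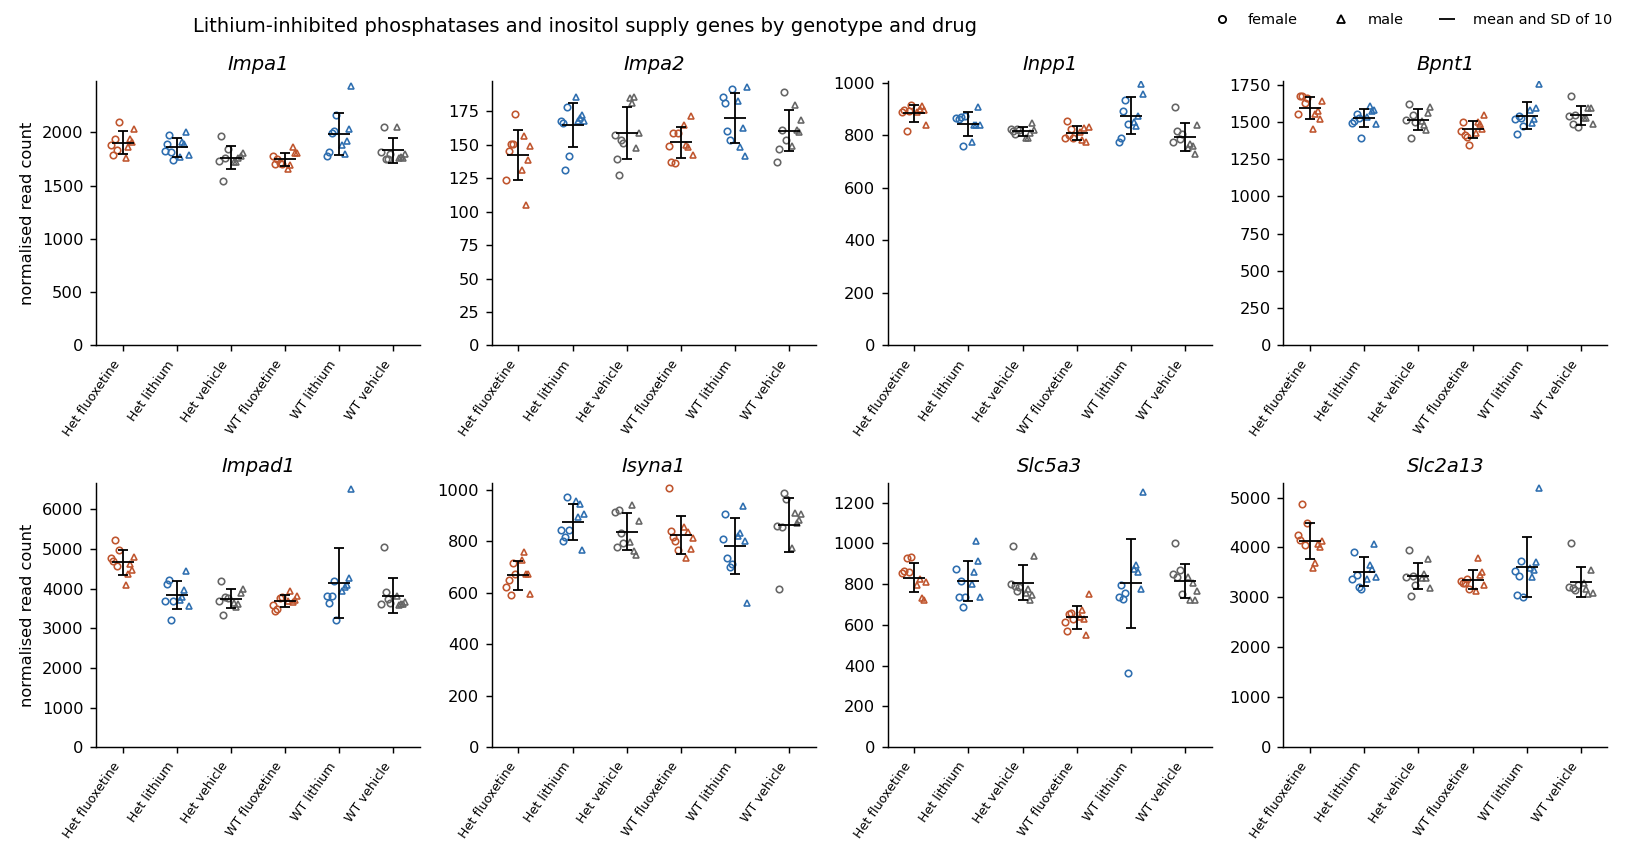
Normalised read count (vertical axes, starting at 0) of the 8 genes in each of the 60 libraries, by genotype and drug, with circles for females, triangles for males and bars for the mean and SD of 10 libraries. By mean, Isyna1 is lowest and Impad1 and Slc2a13 highest in Het fluoxetine and Slc5a3 is lowest in WT fluoxetine, and 1 WT lithium male lies above all others for Impad1, Slc2a13 and Slc5a3.

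Some libraries stood apart from their groups, and several results below rest on them. Libraries held 23901635 to 37769417 reads. Of the 10 Het fluoxetine libraries 9, and 1 WT vehicle library (female replicate 2), were low in 16 pseudogenes. The mean log2 level of these pseudogenes was 1.78 to 3.15 there, against 4.6 to 7.14 in the other 50. The 16 were chosen as the pseudogenes called between Het and WT mice under fluoxetine with a change above 4-fold. A difference between those groups on them was therefore fixed by the choice and is not a separate result. In the Het fluoxetine libraries the deviations of genes from their all-library means also ran against GC content (Pearson r across genes of -0.315 to -0.105). This trend was steeper still in WT vehicle female replicate 2 (-0.356) and WT lithium male replicate 5 (-0.487). Some libraries of other groups lay within the Het fluoxetine range, such as Het lithium male replicate 4 (-0.22) and WT lithium female replicate 4 (-0.191). Trends in other libraries ran the opposite way, up to 0.335 in Het lithium female replicate 4. The labels name no batch. Residuals were largest in 3 libraries, which were replicate 5 of the WT lithium females, of the WT lithium males and of the Het vehicle males. The 7 cortical neuron markers were present in every group, and 5 of 6 choroid plexus markers were in the table, with a summed count of 40.5 to 2406.3 against 115770.9 to 202138.4 for the neuron markers.

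Inpp1, which removes the 1-phosphate from inositol bisphosphate, was the only 1 of the 8 genes called under lithium in WT mice, and its mRNA was higher. It had 776.3, 862.8 and 994 counts (lowest, median and highest) in WT lithium, against 731, 779.8 and 908.9 in WT vehicle. The groups overlapped widely, with 8 of 10 WT lithium libraries above the WT vehicle mean of their sex. Inpp1 rose by 0.14 on the log2 scale (SE 0.0361, 95% interval 0.067 to 0.211), or 10.1%, with a limma adjusted p of 0.00487. As background, 19.2% of the 17810 genes tested were called in this comparison. The Inpp1 call was kept whichever of the 20 libraries was left out (0.121 to 0.158) but was lost with a correction for GC content (0.082, adjusted p = 0.0713) and when only the groups compared were fitted (adjusted p = 0.0859).

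Impa1, the enzyme of the final step from inositol monophosphate to free inositol, showed a difference of like size that narrowly missed the threshold in WT mice. It had 1783.1, 1958.7 and 2438.4 counts in WT lithium, against 1749.7, 1785.3 and 2052.7 in WT vehicle. Every WT lithium library but 3 lay above its vehicle mean, and the highest value came from male replicate 5. The log2 fold was 0.11 (SE 0.043, adjusted p = 0.0575), and without that library and WT lithium female replicate 5 it was 0.058 (adjusted p = 0.347). Impa2 differed by 0.081 (adjusted p = 0.444), with 141.8 to 193.2 counts in WT lithium and 137 to 189.4 in WT vehicle. For Bpnt1 the fold was -0.004, with a 95% interval of -0.065 to 0.057. Impad1 had a log2 fold of 0.10 (adjusted p = 0.233).

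None of the inositol supply genes was called under lithium in WT mice. Isyna1, whose yeast counterpart INO1 is induced when inositol runs short, had 557.8, 804.6 and 934.7 counts in WT lithium, against 613.8, 877.2 and 986.3 in WT vehicle. The lowest value of each group came from a library described above, WT lithium male replicate 5 and WT vehicle female replicate 2. Its log2 fold was -0.15 (SE 0.0694, adjusted p = 0.132), and without WT vehicle female replicate 2 it was -0.20 (adjusted p = 0.0175). Slc2a13 behaved alike in the other direction, at 0.12 (SE 0.056, adjusted p = 0.132) with all libraries and 0.15 (adjusted p = 0.0348) without that WT vehicle library. Without the 2 outlying WT lithium libraries both were smaller, at -0.072 for Isyna1 (adjusted p = 0.504) and 0.082 for Slc2a13 (adjusted p = 0.279). For Slc5a3, a transporter gene known to respond to osmotic stress and inositol demand in cultured cells, the fold was -0.070 (adjusted p = 0.606), with an interval of -0.241 to 0.101.

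In Het mice limma called none of the 8 genes under lithium, none had an unadjusted p below 0.05, and edgeR and DESeq2 also called 0, where 0.983% of all genes tested were called. Inpp1 had 758.1, 851.5 and 907.3 counts in Het lithium, against 788.7, 819.5 and 846.1 in Het vehicle. The Het lithium libraries spread on both sides of the tighter vehicle group, though 8 of 10 lay above their vehicle mean. The fold was 0.047 (SE 0.0361, 95% interval -0.025 to 0.119, adjusted p = 0.606). Impa1 had 1740, 1858.9 and 2007.8 counts in Het lithium and 1541.3, 1760.1 and 1968.5 in Het vehicle, with 9 of 10 libraries above their vehicle mean and a fold of 0.080 (adjusted p = 0.403). Folds of the other 6 genes ran between 0.009 (Bpnt1) and 0.063 (Isyna1).

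Whether lithium acted differently in the 2 genotypes was tested as an interaction, and limma called 0 of the 8 genes, with 1 below an unadjusted p of 0.05 and 0 called by edgeR or DESeq2 (0.0674% of all genes were called). That 1 gene was Isyna1, with a difference of 0.21 between the lithium effect in Het and in WT mice (95% interval 0.012 to 0.405, adjusted p = 0.416). For Inpp1 the difference was -0.092 (95% interval -0.194 to 0.01). Averaged over both genotypes, Inpp1 rose by 0.093 (SE 0.0255, adjusted p = 0.00654) and Impa1 by 0.096 (SE 0.0304, adjusted p = 0.0182), 2 of the 8 genes against a background of 20.9%. The members' share is near that background. Both calls were kept in each of the 40 fits that left out 1 library, and Inpp1 was also called after GC correction (0.068, adjusted p = 0.0304), whereas Impa1 lost its call without the 2 outlying WT lithium libraries (0.069, adjusted p = 0.061). The interval for Bpnt1 was narrow, -0.041 to 0.046. The median log2 fold of the 8 genes under lithium was 0.092 in WT mice and 0.043 in Het mice, beside 0.004 and -0.002 for all genes tested in the same comparisons.

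**Figure D2:**
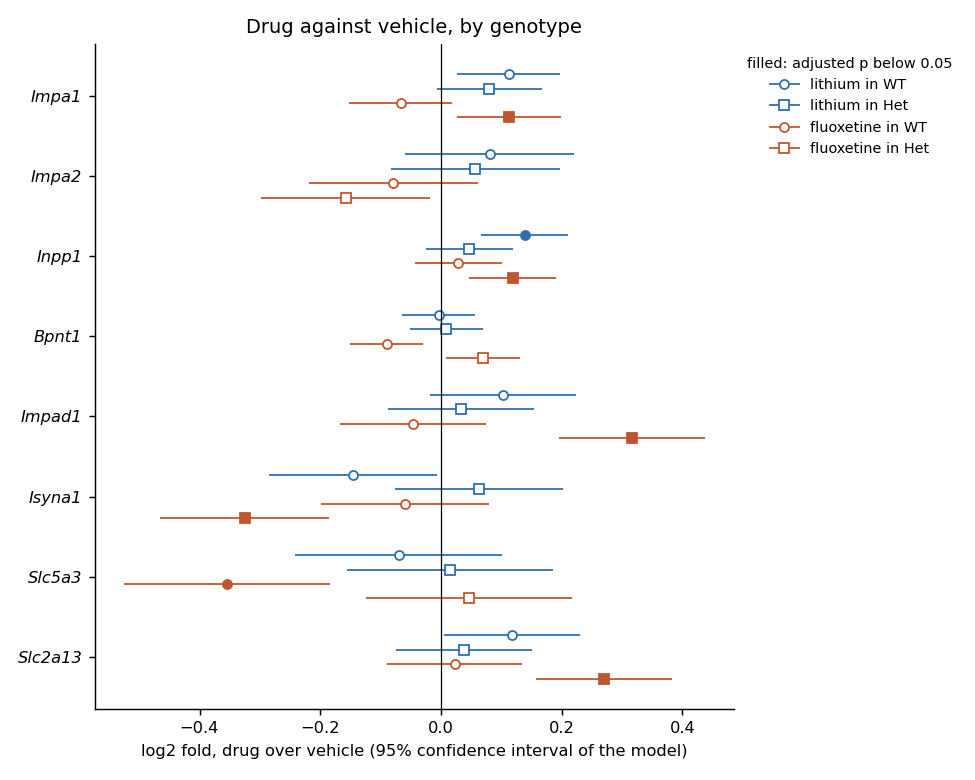
Log2 fold of drug over vehicle with its 95% interval (horizontal axis) for the 8 genes, in WT and Het mice under lithium and fluoxetine, with filled points where the adjusted p was below 0.05. Inpp1 under lithium and Slc5a3 under fluoxetine are the calls in WT mice, and the 5 calls in Het mice are all under fluoxetine.

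The sexes gave different lithium values in WT mice, and these values hang on single libraries. In WT males 3 of the 8 genes were called, with 20.8% of all genes as background, and in WT females 1, with 11.8%. Inpp1 had 851.3, 835.3, 874.2, 994 and 959.3 counts in WT lithium males, against 750.9, 768.3, 758.4, 731 and 840.6 in WT vehicle males. All but 1 of the lithium males exceeded every vehicle male, and Inpp1 rose by 0.23 there (SE 0.051, adjusted p = 0.00244), or by 0.205 without male replicate 5 (adjusted p = 0.0245). With GC correction Inpp1 was at 0.055 there (adjusted p = 0.537), with only the groups compared its adjusted p was 0.112, and under both settings 0 of the 3 male calls were kept. Impad1 (0.30, adjusted p = 0.0127) and Slc2a13 (0.25, adjusted p = 0.0237) rose in WT males, but without male replicate 5 their folds were 0.16 (adjusted p = 0.184) and 0.14 (adjusted p = 0.26), and Slc2a13 also lost its call without WT vehicle male replicate 3 (0.23, adjusted p = 0.0576). In females Inpp1 was at 0.050 (adjusted p = 0.565), and the test of the difference between the sexes gave -0.18 for Inpp1 (adjusted p = 0.0922), so a difference between sexes was not shown for it.

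Slc5a3 had opposite signs in the sexes. It had 739.2, 796.8, 729.6, 757.8 and 361.6 counts in WT lithium females, against 848.6, 1003.8, 834.9, 871.3 and 750.3 in WT vehicle females. In males it had 872.9, 893.5, 860.8, 774.4 and 1253.4 counts under lithium, against 833.2, 720.3, 806.6, 722.7 and 767.8 under vehicle. Replicate 5 was the extreme library in each lithium group, low in the female and high in the male. Slc5a3 fell by 0.396 in WT females (adjusted p = 0.0237) and was at 0.26 in WT males (adjusted p = 0.119), and the female minus male difference was -0.65 (SE 0.1702, adjusted p = 0.0234, against 9.64% of all genes called). Impad1, at -0.386 (adjusted p = 0.0373), was the other gene called there. Without female replicate 5 the Slc5a3 fold in females was -0.18 (adjusted p = 0.283) and the difference between sexes -0.44 (adjusted p = 0.0883), and without the 2 outlying WT lithium libraries 0 of the 8 genes were called for that difference. Both calls were also lost without WT vehicle female replicate 2, at -0.34 (adjusted p = 0.0793) and -0.59 (adjusted p = 0.0835), and the difference between sexes without WT lithium male replicate 5 (-0.54, adjusted p = 0.106). Impad1 lost its call for that difference in 7 of the fits without 1 library. In Het mice limma called 0 of the 8 in females, where 0.0112% of all genes were called, 0 in males (0.00561%) and 0 for the difference (0%). None of these had an unadjusted p below 0.05 or a call by edgeR or DESeq2.

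In WT mice 1 gene, Slc5a3, was called under fluoxetine, and its mRNA was lower. SMIT1, its product, carries inositol into cells together with sodium ions. Slc5a3 had 548.4, 634.7 and 749.4 counts in WT fluoxetine, against 720.3, 819.9 and 1003.8 in WT vehicle. All 10 fluoxetine libraries lay below the vehicle mean of their sex, and the groups overlapped only between the highest fluoxetine library and the lowest vehicle ones. Slc5a3 fell by 21.8%, a log2 fold of -0.355 (SE 0.0851, 95% interval -0.525 to -0.184) with a limma adjusted p of 0.00412, while 8.43% of all genes tested were called in this comparison. The call was kept in all 20 fits without 1 library (-0.382 to -0.326) and under the other settings tried, with adjusted p between 4.12e-06 and 0.00967.

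**Figure D3:**
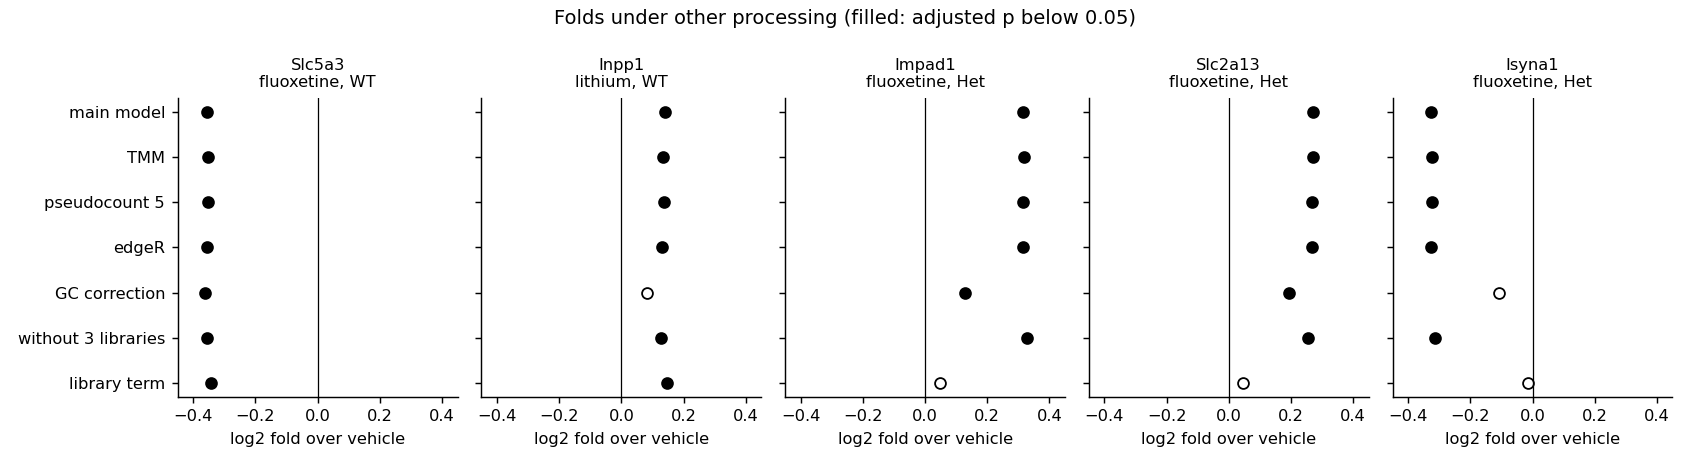
Log2 fold over vehicle (horizontal axes) of 5 results under 7 ways of processing (rows), filled where the adjusted p was below 0.05. Slc5a3 in WT fluoxetine stays near -0.355 throughout, Inpp1 in WT lithium loses its call with GC correction, and Impad1, Slc2a13 and Isyna1 in Het fluoxetine shrink towards 0 with the library term.

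The other 7 genes were not called in WT fluoxetine. Closest was Bpnt1, with 1346.5, 1444.1 and 1548.9 counts in WT fluoxetine against 1465.7, 1533.3 and 1672.2 in WT vehicle. Lower in 9 of 10 libraries than the vehicle mean of their sex, it had a fold of -0.090 (SE 0.0304, adjusted p = 0.0512), and edgeR (adjusted p = 0.0398) and DESeq2 (adjusted p = 0.0284) called it. Isyna1 was at -0.060 and Slc2a13 at 0.023, so neither of the other supply genes was lower with Slc5a3 by the test. Endothelial markers, genes of vessels, were lower in the same comparison, with 3 of 6 called where 8.43% of all genes were. Their summed count was 5008.6 to 8178.1 (median 5796.7) in WT fluoxetine against 6022.9 to 7924.9 (median 6846) in WT vehicle. None of the 6 was at 0. In Het mice their summed median was also lower, 5815.5 under fluoxetine against 6672.7 under vehicle, where the Slc5a3 fold was 0.046. In WT fluoxetine against WT vehicle, precursor markers had a summed median of 6279.4 against 7202.4 and cortical neuron markers 167222.2 against 162827.7. Astrocyte markers had 137469.4 against 150216.2, microglial 8676.5 against 9527.8 and meningeal 5386.6 against 6253.9. GABA neuron markers had 20472.1 against 22215.4 and oligodendrocyte markers 155724.2 against 155406.5. The part of these markers in the Slc5a3 result was not tested.

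The promoter of Slc5a3 is shown because the fluoxetine call of this gene in WT mice held under every setting tried. Slc5a3 shares its start region with Mrps6, a mitochondrial ribosomal protein gene on the same strand, and the coding exon of Slc5a3 lies downstream inside the same unit, so reads of the shared first exon could be split between the 2 genes. The 198 bases before the annotated Mrps6 start, RefSeq GRCm38.p6 at chr16:92058072-92058269 on the plus strand, are given with the letters GGGCGG, a binding motif of Sp1-type factors, in capitals.
Slc5a3: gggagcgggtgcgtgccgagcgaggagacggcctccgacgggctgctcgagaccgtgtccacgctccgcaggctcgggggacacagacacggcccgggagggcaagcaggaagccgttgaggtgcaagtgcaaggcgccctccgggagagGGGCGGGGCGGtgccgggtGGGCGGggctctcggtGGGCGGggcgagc
The window holds 4 matches to GGGCGG on either strand, 2 of them overlapping. In the first 198 letters of each of 27025 RefSeq promoter entries, 24.2% hold at least 1. For other genes those letters need not lie directly before the start, and the shares that follow were counted in the same way. It is 75.8% G or C with 24 CG dinucleotides, a number reached by 5.07% of promoters. Searches of both strands for the tonicity element (TonE), for TGACGTCA, for TATAAA and for CCAAT found 0 matches here, and 3.5%, 0.836%, 9.43% and 28.5% of promoters hold those letters. These are descriptions of the letters in this window. Mrps6 itself averaged 472.1 ± 36.59 counts in WT fluoxetine and 514.3 ± 40.2 in WT vehicle (SD, n = 10 each), a fold of -0.12 (adjusted p = 0.149).

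In Het mice Slc5a3 was not called under fluoxetine. It had 722.2, 839.3 and 931.6 counts in Het fluoxetine, against 724.7, 779.9 and 987.5 in Het vehicle, and the ranges nearly coincide. Its fold was 0.046 (adjusted p = 0.707), and the fluoxetine effect in Het minus that in WT mice was 0.40 (SE 0.1204, adjusted p = 0.0127). For this difference 6 of the 8 genes were called in the main model and 1 with GC correction. With a term for the 10 libraries low in pseudogenes 0 were called, so the Slc5a3 call was lost there. With GC correction the Het fold was -0.106 (adjusted p = 0.32).

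Fluoxetine in Het mice instead called 5 of the other genes, in a comparison where 39% of all genes were called. Impad1, the Golgi phosphatase needed for sulfation of proteoglycans such as chondroitin sulfate, had 4101.9, 4664.3 and 5216.3 counts in Het fluoxetine, against 3343.5, 3724.6 and 4191.2 in Het vehicle. All 10 fluoxetine libraries exceeded the vehicle mean of their sex, and only the lowest of them fell within the vehicle range. Impad1 rose by 0.32 (SE 0.0603, adjusted p = 5.44e-05), or 24.5%. Inpp1, with 815.7 to 916.9 counts in Het fluoxetine and 788.7 to 846.1 in Het vehicle, rose by 0.12 (adjusted p = 0.00725). Impa1 rose by 0.11 (adjusted p = 0.0324), a call lost in 5 of the 20 fits without 1 library, which left out Het fluoxetine female replicate 5, Het fluoxetine male replicates 3 and 5, Het vehicle female replicate 3 or Het vehicle male replicate 2. Bpnt1 at 0.070 (adjusted p = 0.0613) and Impa2 at -0.16 (adjusted p = 0.0657) were not called.

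The 2 supply genes called moved in opposite directions. Isyna1 had 589.2, 671.1 and 756.3 counts in Het fluoxetine, against 745.4, 812.8 and 940.5 in Het vehicle. The ranges touched only at their edges. Isyna1 fell by 20.2% (log2 fold -0.325, SE 0.0694, adjusted p = 0.000224). Slc2a13 had 3595.3, 4099.6 and 4878.9 counts in Het fluoxetine, against 3021.6, 3402.6 and 3940.3 in Het vehicle, and every fluoxetine library was above its vehicle mean. It rose by 0.27 (SE 0.056, adjusted p = 0.000163), or 20.6%. Averaged over both genotypes, fluoxetine called 5 of the 8 genes where 26.8% of all genes were called. Inpp1 (0.074), Impad1 (0.135) and Slc2a13 (0.15) were higher and Isyna1 (-0.19) and Slc5a3 (-0.154) lower, the last with an adjusted p of 0.0498 and a call lost in 29 of the 40 fits without 1 library. With GC correction 3 of the 5 calls were kept, while Impad1 was at 0.037 (adjusted p = 0.286) and Inpp1 at -0.004 (adjusted p = 0.934). A term for the 10 libraries low in pseudogenes left 0 of the 5.

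These Het fluoxetine values moved with the library properties described above. With the GC correction, Impad1 (0.13, adjusted p = 0.00549) and Slc2a13 (0.19, adjusted p = 0.0058) were still called at a smaller size, Isyna1 was at -0.11 (adjusted p = 0.0908), Impa1 at 0.021 and Inpp1 at -0.029. With a term for the 10 libraries low in pseudogenes, 0 of the 8 genes were called, and Impad1 was at 0.048, Slc2a13 at 0.047 and Isyna1 at -0.015. That term leaves 1 Het fluoxetine library, male replicate 1, to carry the drug difference, so the drug and the set of libraries almost coincide in it. The pseudogenes behind the term were also chosen by their difference between Het and WT mice under fluoxetine. The term therefore cannot separate the drug from a property of the libraries. Male replicate 1 of Het fluoxetine is the library outside the set. This library had 4101.9 counts of Impad1, 3595.3 of Slc2a13 and 728.2 of Isyna1. Outside the group, WT vehicle female replicate 2 had 5053 counts of Impad1, 4086.4 of Slc2a13 and 613.8 of Isyna1, and WT lithium male replicate 5 had 6506.8, 5187.2 and 557.8 for the same genes. Both libraries thus combined high Impad1 and Slc2a13 with low Isyna1 without fluoxetine. Their part in the result was not tested.

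The same 3 genes moved together among replicates. After removal of the 12 group means, over 60 libraries, Pearson r was 0.842 between Impad1 and Slc2a13, -0.75 between Impad1 and Isyna1 and -0.723 between Isyna1 and Slc2a13. The points share library depth, and the genes differ in base composition, with GC contents of 39.2% for Impad1, 45.3% for Slc2a13 and 60.7% for Isyna1 beside a median of 49.4% for tested genes. With Impad1, Slc5a3 (41.6% GC) correlated at 0.64, Impa1 (44.5% GC) at 0.664 and Bpnt1 (45.7% GC) at 0.622. Inpp1 (41.8% GC) was at 0.473 with it and Impa2 (49.6% GC) at -0.053. Between Slc5a3 and Isyna1 r was -0.218. The part of base composition in these correlations was not tested. The Isyna1 neighbour Ssbp4, whose end faces that of Isyna1, also fell in Het fluoxetine (-0.195, adjusted p = 0.0438).

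Genotype alone made no called difference. In vehicle, limma called 0 of the 8 genes between Het and WT mice, none had an unadjusted p below 0.05, edgeR and DESeq2 called 0, and 0.59% of all genes were called. The largest fold in size was that of Impa1, -0.056 (95% interval -0.142 to 0.03), with 1541.3, 1760.1 and 1968.5 counts in Het vehicle against 1749.7, 1785.3 and 2052.7 in WT vehicle. Slc2a13 stood at 0.051 and Inpp1 at 0.040, and the other 5 genes within 0.037 of 0. Under lithium the genotypes again had 0 genes called by limma, edgeR or DESeq2 (0.0281% of all genes were), with Impa1 (-0.088) and Isyna1 (0.17, adjusted p = 0.332) below an unadjusted p of 0.05.

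Under fluoxetine, by contrast, 7 of the 8 genes were called between Het and WT mice, where 39.5% of all genes were. Impad1 had 4101.9 to 5216.3 counts in Het fluoxetine against 3442.7 to 3933.1 in WT fluoxetine, without overlap. The log2 fold was 0.34 (SE 0.0603, adjusted p = 3.03e-05). Slc5a3 was higher in all 10 Het libraries than the WT mean of their sex, by 0.385 (SE 0.0851, adjusted p = 0.000338), Slc2a13 was higher by 0.30 and Isyna1 lower by 0.30 (log2 fold -0.302). Smaller positive folds were those of Bpnt1 (0.13), Inpp1 (0.13) and Impa1 (0.12), and Impa2 was at -0.10 (adjusted p = 0.265). With GC correction 3 of the 7 calls were kept, those of Impad1 (0.13, adjusted p = 0.00872), Slc5a3 (0.22, adjusted p = 0.0319) and Slc2a13 (0.22, adjusted p = 0.00334), and with the library term 0. The fluoxetine effect itself differed between the genotypes for 6 of the 8 genes (24% of all genes), Slc5a3 at 0.40, Impad1 at 0.36, Slc2a13 at 0.25, Impa1 at 0.18, Bpnt1 at 0.16 and Isyna1 at -0.265, of which 1 was called with GC correction and 0 with the term. Leaving out 1 library ended the Isyna1 call here in 14 fits and the Impa1 call in 2, without Het vehicle female replicate 3 (0.16, adjusted p = 0.0531) or WT vehicle female replicate 2 (0.16, adjusted p = 0.0538).

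Lithium was also set directly against fluoxetine. The lithium and fluoxetine comparisons within a genotype share their vehicle libraries, so the drugs are compared through this direct contrast. In WT mice 4 of the 8 genes were called, all higher under lithium (13.1% of all genes were called). Impa1 had 1783.1 to 2438.4 counts in WT lithium against 1654.2 to 1859.1 in WT fluoxetine, a fold of 0.18 (adjusted p = 0.00459). When only the groups compared were fitted 0 of the 4 were called, with an adjusted p of 0.0569 for Impa1, and with GC correction or without the outlying libraries 2 were, Impa1 and Slc5a3. Slc5a3 had 361.6, 785.6 and 1253.4 counts in WT lithium against 548.4, 634.7 and 749.4 in WT fluoxetine, with a fold of 0.28 (adjusted p = 0.0205). The lithium group was the wider, and leaving out its lowest library, female replicate 5, gave 0.39, while leaving out its highest, male replicate 5, gave 0.23 (adjusted p = 0.0791), and leaving out female replicate 4 gave 0.26 (adjusted p = 0.0507). Inpp1 (0.11, adjusted p = 0.0333) and Bpnt1 (0.086, adjusted p = 0.0498) lost their calls in 9 and 14 of the fits without 1 library, and both did so without WT lithium male replicate 5. In Het mice 4 genes were called (32.8% of all genes), Isyna1 higher under lithium by 0.39 without overlap of the ranges, Impa2 higher by 0.215, Impad1 at -0.28 and Slc2a13 at -0.23. None of these was called with the library term, and Impa2 lost its call without Het fluoxetine male replicate 3 (0.17, adjusted p = 0.0509).

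The wider pathway was described with 99 other genes in 9 lists (phosphoinositide synthesis, phospholipase C, diacylglycerol kinases, inositol phosphate kinases and phosphatases, PAPS and sulfation, and others), of which 96 could be tested. Under lithium 15 were higher and 7 lower in WT mice, 22.9% against 19.2% of all genes. In Het mice 1 was higher (Pip5k1b) and 1 lower (Itpkc), 2.08% against 0.983%. Of 20 fits without 1 library, Pip5k1b kept its call in 9 and Itpkc in 3. Over both genotypes 22 were higher and 8 lower, 31.2% against 20.9%. Diacylglycerol kinases turn diacylglycerol back into phosphatidic acid for the resynthesis of inositol lipid. Theirs was the most one-sided count, with 6 of 9 higher and 0 lower over both genotypes and a median of 0.076. Of these calls, Dgki was lost with edgeR, with DESeq2 and without the 2 outlying WT lithium libraries, and held in 18 of 40 fits without 1 library. Dgke was lost with GC correction and when only the groups compared were fitted. Dgkg rose by 0.20 (adjusted p = 0.00622) and Dgkh by 0.13 (adjusted p = 0.0144). Pi4ka, the kinase of the first phosphorylation of phosphatidylinositol at the plasma membrane, rose by 0.16 (adjusted p = 0.000597), while Plcb3, a G-protein-driven phospholipase C, fell by 0.197 (adjusted p = 0.000495). Dgkg, Dgkh, Pi4ka and Plcb3 were each called in WT mice alone, and none of them in Het mice alone. Plcb3 was at -0.319 in WT mice (adjusted p = 0.000124). There 10 of 10 lithium libraries lay below the vehicle mean of their sex, against 7 of 10 in Het mice.

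**Figure D4:**
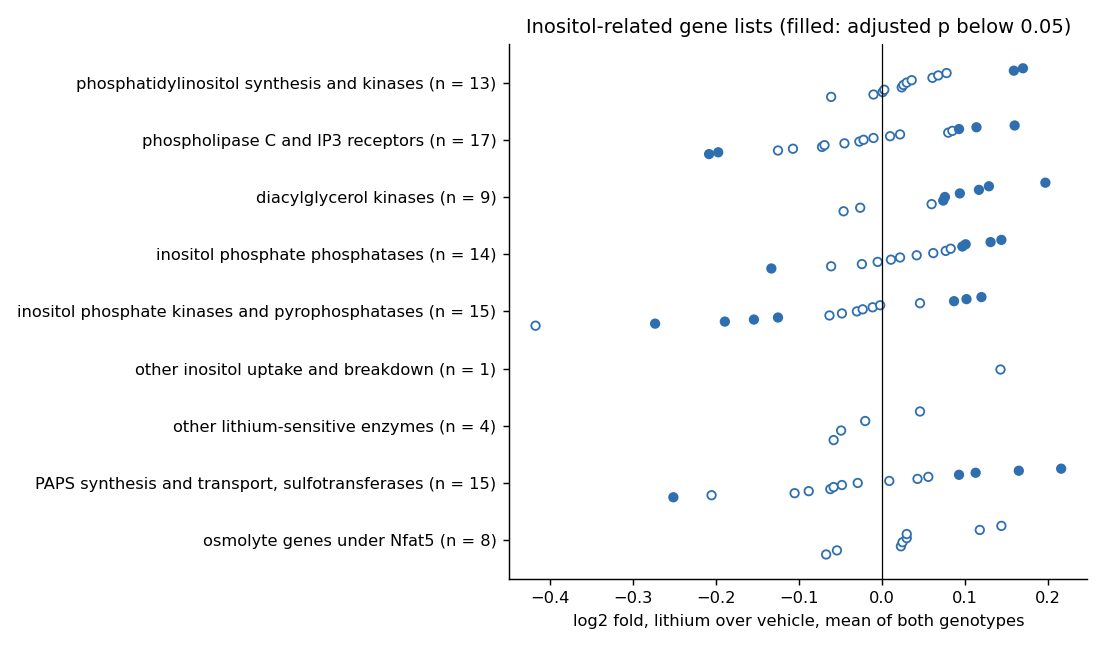
Log2 fold of lithium over vehicle, mean of both genotypes (horizontal axis), for each tested gene of the 9 lists (rows, with the number tested), filled where the adjusted p was below 0.05. All 6 filled points among the diacylglycerol kinases lie to the right of 0, and the osmolyte list has none.

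Of the 3 IP3 3-kinase genes, which turn IP3 into IP4, Itpkc and Itpkb were lower under lithium over both genotypes, and Itpka was at -0.048 (adjusted p = 0.698). Itpkc had 137.8, 169.1 and 232.7 counts in WT lithium against 181.8, 209.4 and 237.5 in WT vehicle. In Het lithium it had 147.2, 182.9 and 204.9 counts against 200.9, 218.3 and 245.5 in Het vehicle. Of the 20 lithium libraries 1, a WT library, exceeded the vehicle mean of its sex. Over both genotypes Itpkc fell by 0.273 (SE 0.051, adjusted p = 0.000127), and Itpkb fell by 0.189 (SE 0.054, adjusted p = 0.00896), both also with GC correction. Both genes were also called lower under fluoxetine. In WT mice Itpkc was at -0.301 (adjusted p = 0.00443) and Itpkb at -0.293 (adjusted p = 0.00861). In Het mice they were at -0.465 and -0.283, where Itpkb lost its call with GC correction (-0.139, adjusted p = 0.184). Set directly against WT fluoxetine, WT lithium was at 0.025 for Itpkc (adjusted p = 0.866) and 0.115 for Itpkb (adjusted p = 0.324). Among the genes of more highly phosphorylated inositols, Nudt3, a diphosphoinositol polyphosphate hydrolase, fell by 0.154 under lithium (adjusted p = 2.6e-05), and Ppip5k1, which makes inositol pyrophosphates, rose by 0.10 (adjusted p = 0.000545).

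**Figure D5:**
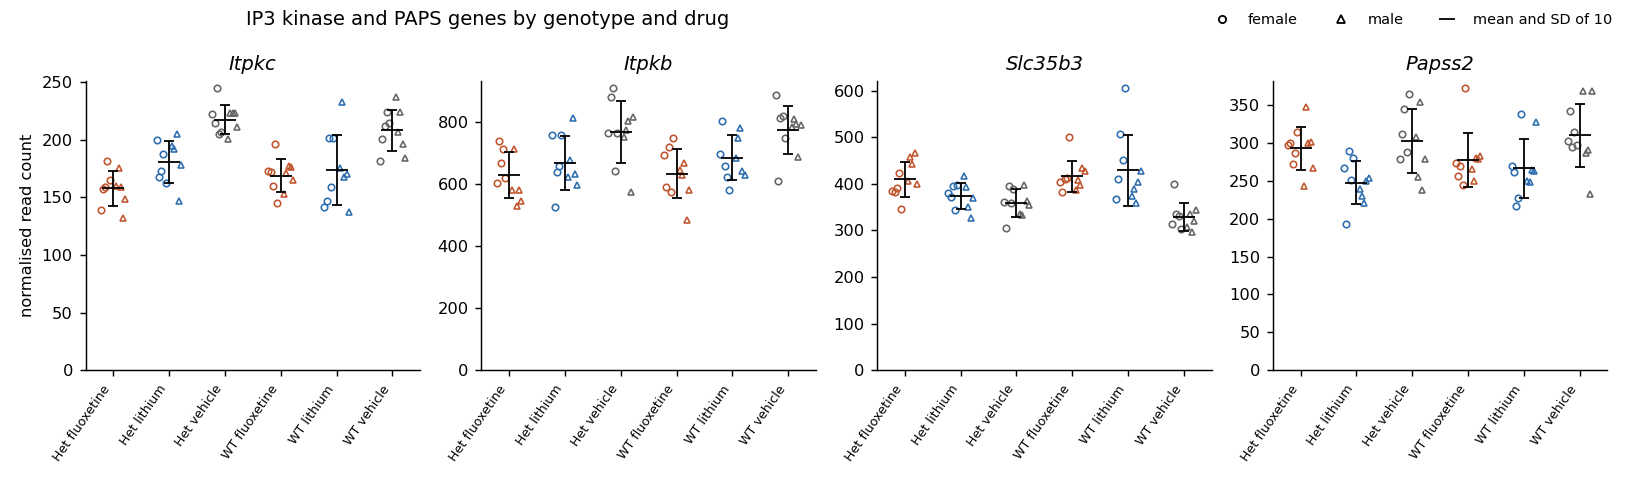
Normalised read count (vertical axes, starting at 0) of Itpkc, Itpkb, Slc35b3 and Papss2 in each library by genotype and drug, with circles for females, triangles for males and bars for the mean and SD of 10 libraries. Itpkc and Itpkb are highest in the 2 vehicle groups, Slc35b3 is lowest in WT vehicle, and Papss2 is lowest in Het lithium.

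Genes of PAPS, the sulfate donor whose by-product BPNT1 and the Impad1 enzyme clear, changed in both directions under lithium. Papss2, which makes PAPS, had 193.2, 250.7 and 289.7 counts in Het lithium against 238.6, 298.4 and 364.8 in Het vehicle. In WT lithium it had 216.5, 262.2 and 337.9 counts against 233, 299.5 and 369 in WT vehicle. It fell by 0.251 over both genotypes (SE 0.058, adjusted p = 0.00142), with all 10 Het and 8 of 10 WT lithium libraries below the vehicle mean of their sex. Slc35b3, which carries PAPS into the Golgi, had 358.2, 407.7 and 605.5 counts in WT lithium against 297.3, 324.8 and 399.5 in WT vehicle and rose by 0.37 there (adjusted p = 3.03e-05, 10 of 10 libraries). In Het mice it was at 0.061 (adjusted p = 0.714), and the difference between genotypes was not called (-0.31, adjusted p = 0.144). Slc35b3 was also higher under fluoxetine in WT mice, by 0.342 (adjusted p = 0.000121). Set directly against WT fluoxetine, WT lithium was at 0.03 for Slc35b3 (adjusted p = 0.8).

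Cell type markers moved in the same lithium comparison. Over both genotypes 20.9% of all genes were called, in either direction. Markers called lower were 6 of 6 microglial, 5 of 8 oligodendrocyte, 4 of 6 endothelial, 4 of 6 meningeal and 3 of 8 astrocyte. The median folds of these lists, in that order, were -0.201, -0.379, -0.264, -0.269 and -0.12. The summed microglial count was 6046.4 to 9019.1 in WT lithium against 8697.8 to 10373.6 in WT vehicle, and no marker was at 0. Other lists went both ways by summed median in WT lithium against WT vehicle. Cortical neuron markers had 145707.2 against 162827.7, oligodendrocyte precursor markers 5651.2 against 7202.4 and GABA neuron markers 23848.7 against 22215.4. The part of these markers in the pathway results was not tested. In fluoxetine-treated Het mice 26 of the 96 pathway genes were higher and 16 lower (43.8% against 39% of all genes). In WT fluoxetine 4 were higher and 3 lower (7.29% against 8.43%), and between the genotypes in vehicle limma called 0 of 96 where 0.59% of all genes were called.

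For each member the 3 genes most like it were sought by Pearson r of log2 values over the 60 libraries after removal of group means. Impad1 was followed most closely, by Ube3a (r = 0.959), Cdc73 (0.951) and Hdgfl3 (0.949), and Slc2a13 by Atp2b1 (0.939) and Cacnb4 (0.929). Isyna1 was closest to Flii (0.849), Gnai2 (0.829) and Lamb2 (0.814), all of high GC content (56% to 58.8%), as Isyna1 is. Slc5a3 went with Npepps (0.884), Impa1 with Rtn4 (0.819), Bpnt1 with Napb and Pja2 (0.772 each) and Inpp1 with Mtf2 (0.702). GC content was 36.9%, 36.8% and 41.1% for Ube3a, Cdc73 and Hdgfl3, beside 39.2% for Impad1. It was 47.9% for Npepps beside 41.6% for Slc5a3, and 38.2% for Mtf2 beside 41.8% for Inpp1. Impa2, the lowest in reads, had its highest r with Thbs4 (0.565).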

How the data were processed

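RNA was prepared with a TruSeq Stranded mRNA kit, as the labels' protocols give it. Per the submitters' processing notes, Salmon 0.11.2, DESeq2 1.19.11, R 3.6.0 and GRCm38 were used, with no roles named, and the strand setting of the counting is not given there. The deposited signal of each gene is its read count divided by 1 factor per library, and division by each column's step returned whole reads within 0.001 for 100% of values. Of 18088 genes, GENCODE M21 named 18077. limma 3.58.1 in R 4.3.3 (trend, robust) was fitted to log2(value + 1) for 17810 genes with at least 10 in at least 5 libraries, with 12 means of genotype, drug and sex. This scale understates the change of low genes. Calls needed a Benjamini-Hochberg adjusted p below 0.05 over all genes of a contrast, and intervals are 95%. The design foresaw a count test for raw counts, but as values are normalised, edgeR 4.0.16 and DESeq2 1.42.0 on recovered reads served as alternatives. Others were TMM factors, no filter, another pseudocount (5), the compared groups fitted alone, a replicate block, GC correction (loess, span 0.3, for 99.94% of genes), a term for 10 libraries low in pseudogenes, and libraries left out. Fits without the Het fluoxetine libraries and without 2 WT lithium libraries were added after seeing the data. Among 120 replicate pairs the lowest chi-square per gene was 4.37, so none was 1 library deposited again. The members and lists were chosen with earlier results of these data known. At most 6 called genes per list and direction, those with the smallest p, could be named. Sequences came from GENCODE M21 transcripts and RefSeq promoters, which held 5 of the 8 members. One gene among those most like Slc2a13 is not reported here.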

Additional observations from a re-analysis of the deposited data

Results flagged for a closer look

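In 15 of 96 combinations of gene, group and sex, each of 5 libraries, 1 library stood far from the other 4, where chance flags about 1 in 20. For Impa1 these were WT vehicle female replicate 2 at 2052.7 counts (the others 1749.7 to 1820.1) and WT vehicle male replicate 1 at 2049.4 (1763.6 to 1801.9). Impa2 had Het lithium male replicate 1 at 185.5 (167.4 to 172.3). Inpp1 had Het fluoxetine female replicate 3 at 815.7 (888.6 to 916.9) and Het lithium female replicate 4 at 758.1 (864.1 to 875.6). Isyna1 had Het lithium female replicate 4 at 969.7 (799.4 to 842.8) and WT vehicle male replicate 1 at 772.3 (871.9 to 907.8).

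WT lithium male replicate 5 stood apart for 3 genes, with 6506.8 counts of Impad1 (the others 3937.6 to 4257.6), 5187.2 of Slc2a13 (3398.4 to 3699.6) and 1253.4 of Slc5a3 (774.4 to 893.5). WT vehicle female replicate 2 had 5053 counts of Impad1 (3614.7 to 3921.5) and 4086.4 of Slc2a13 (3153.9 to 3254.8). Slc5a3 was further at 361.6 in WT lithium female replicate 5 (729.6 to 796.8), 987.5 in Het vehicle female replicate 2 (766.6 to 801.1) and 939 in Het vehicle male replicate 5 (724.7 to 775.4).

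A test of the difference between groups picked out 8 values. The fluoxetine effect in Het minus that in WT mice was 0.18 for Impa1, 0.16 for Bpnt1, 0.362 for Impad1, -0.265 for Isyna1, 0.401 for Slc5a3 and 0.247 for Slc2a13. The lithium effect in WT females minus that in WT males was -0.386 for Impad1 and -0.651 for Slc5a3.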

How the results depend on the processing

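Over 13 alternatives, the 152 results of single members gave 1725 values that kept direction and side of the threshold, 100 that lost a call, 12 that gained one and 11 that reversed. Counts of members called moved as follows, where the cause was not tested. In WT fluoxetine 2 genes (1 in the main model) were called with TMM, edgeR, DESeq2, GC correction with or without the replicate block, or without 3 outlying libraries. In WT lithium 0 (1) were called with the groups alone or GC correction, and 4 with the library term. For lithium against fluoxetine in WT mice (4) it was 0 with the groups alone and 2 with GC correction or without the outlying libraries. In WT lithium females (1) it was 0 with the groups alone or without outlying libraries, and in males (3) 0 with the groups alone or GC correction and 1 without outlying libraries. Their difference (2) had 0 under all of these, and 1 with the library term or without the Het fluoxetine libraries. With GC correction, Het fluoxetine kept 2 (5), the fluoxetine mean 3 (5), Het minus WT in fluoxetine 3 (7) and the fluoxetine interaction 1 (6), and these and lithium against fluoxetine in Het mice (4) had 0 with the library term. The lithium mean (2) had 1 without the outlying libraries.

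Reversals with GC correction were those of Inpp1, at -0.029 in Het fluoxetine and in Het minus WT in fluoxetine and -0.004 in the fluoxetine mean. With the library term Impa1 was at -0.043 in Het fluoxetine and -0.031 in Het minus WT in fluoxetine, Isyna1 at 0.008 in the same contrast and 0.079 in the fluoxetine interaction, and Slc2a13 at -0.001 in that interaction.

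With 1 library left out, 1 to 4 members were called in WT lithium, 2 to 2 in the lithium mean, 0 to 1 in WT lithium females, 1 to 4 in WT lithium males, 0 to 3 for their difference, 1 to 2 in WT fluoxetine, 4 to 6 in Het fluoxetine, the fluoxetine mean and the fluoxetine interaction, 7 to 7 for Het minus WT in fluoxetine, 1 to 5 for lithium against fluoxetine in WT and 3 to 4 in Het mice, and 0 to 0 in every other contrast. The 4 in WT lithium came without WT vehicle female replicate 2.

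The replicate numbers do not pair the libraries, since 10 of 60 correlated best with their own number. With the number as a block Inpp1 in WT lithium stayed at 0.139 (adjusted p = 0.00526) and Slc5a3 in WT fluoxetine at -0.355 (adjusted p = 0.00536), and the block by itself moved no count of members called by more than 1.5 times. Impa2, with 94 to 224 reads per library, has the least depth.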
